A study of Homo sapiens with 4 samples.

Results

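SLC25 carriers are membrane proteins, most of them in the inner mitochondrial membrane, that move metabolites between the cytosol and the matrix. Each has a repeated fold that spans the membrane several times and opens to one side and then to the other, so that most members exchange one solute for another. Through them ADP enters and ATP leaves the matrix, phosphate is supplied to the ATP synthase, reducing equivalents cross in the malate-aspartate shuttle, and citrate, amino acids, iron, nucleotides and cofactors are distributed. The carriers were taken as every gene model in the deposited tables whose symbol is SLC25A followed by a number, which gave 50 rows of 57820, with 48 different symbols. SLC25A10 has a second, overlapping model and SLC25A6 a second row for its copy in the pseudoautosomal region of the Y chromosome.

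The study sequenced RNA from G401, a line of rhabdoid tumour cells from the kidney that has lost SMARCB1, a subunit of SWI/SNF chromatin remodelling complexes. The 4 libraries were 2 labelled BRD9 KO, in which BRD9 had been deleted, and 2 labelled LacZ control, the control of the targeting. BRD9 carries a bromodomain, which binds acetylated lysines, and belongs to the form of SWI/SNF assembled without SMARCB1. All 4 libraries came from a single cell line, and the day of harvest is not stated in the sources used here. The study's text says that clones of this line lacking BRD9 could not be derived.

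Totals of estimated counts ran from 15053247 to 19559290 per library, with 8.15% to 8.48% of each total on mitochondrially encoded genes. BRD9 itself stood at 29.4 and 26.8 counts-per-million (CPM) in the BRD9 KO libraries, against 48.2 and 53.8 CPM in the LacZ control libraries. Its log2 fold change was -0.86 (edgeR quasi-likelihood test, adjusted p = 2.84e-09, n = 2 per group). The remaining BRD9 transcript is no measure of remaining protein. SMARCB1 had 0 counts in all 4 libraries. Vimentin (VIM), a mesenchymal filament protein typical of rhabdoid cells, had 1174 and 1179 transcripts-per-million (TPM) in BRD9 KO and 1646 and 1650 TPM in LacZ control. The leukocyte marker PTPRC was at 0 counts in every library, and the epithelial markers EPCAM and CDH1 had at most 6 counts.

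Of the 41 carriers tested, 3 changed by at least 1.5-fold with an edgeR adjusted p under 0.05 (7.32%, against 6.86% of all genes tested). They were SLC25A10, the dicarboxylate carrier, and SLC25A48, a carrier of the inner membrane linked to choline uptake, which rose, and SLC25A18, a glutamate carrier, which fell. The 250 bases upstream of the start sites of SLC25A18 and SLC25A48 are shown because these members carry the largest fall and the largest rise. They come from RefSeq on GRCh38.p14 and are written 5′ to 3′ in transcript sense, with capitals marking letters that match a searched motif on either strand. The SLC25A18 stretch lies at chr22:17563248-17563497 (plus strand) and that of SLC25A48 at chr5:135834413-135834662 (plus strand).
SLC25A18: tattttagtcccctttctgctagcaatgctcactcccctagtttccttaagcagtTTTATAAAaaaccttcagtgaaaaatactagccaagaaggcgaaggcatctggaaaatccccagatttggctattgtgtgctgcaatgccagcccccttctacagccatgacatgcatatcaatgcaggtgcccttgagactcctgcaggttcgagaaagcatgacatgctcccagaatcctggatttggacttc
SLC25A48: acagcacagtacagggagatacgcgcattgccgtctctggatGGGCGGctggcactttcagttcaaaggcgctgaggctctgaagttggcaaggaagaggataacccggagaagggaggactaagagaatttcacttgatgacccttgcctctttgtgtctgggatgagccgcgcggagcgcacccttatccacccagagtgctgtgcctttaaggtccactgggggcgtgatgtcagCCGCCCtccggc

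The upstream stretches of SLC25A48, which rose, and SLC25A18, which fell, differ in base composition. The SLC25A48 stretch is 58% G and C with 13 CpG dinucleotides, and that of SLC25A18 is 46% G and C with 2. Each motif was searched on both strands: the GC box as its letters GGGCGG, the CCAAT box by the letters of its name, the E-box as the palindrome CACGTG, the ETS motif as its core CCGGAAG, the CRE as the palindrome TGACGTCA, the TATA box as the letters TATAAA, and the palindrome of NRF1. The capitals in SLC25A48 are GC boxes, and those in SLC25A18 are TATAAA on both strands, overlapping. A match is a description of letters, the start site is that of RefSeq, and which start these cells use was not tested.

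RefSeq upstream stretches were found for 40 of the 48 symbols. Their median G and C content was 65.6%, with a range of 37.6% to 82%, against a median of 58% over 27305 promoters. A GC box was in 70% of the carriers' stretches and 42.3% of all promoters, and a CCAAT box in 45% and 33%. The ETS letters were in 20% and 8.82%, the E-box in 17.5% and 6.49%, and the CRE in 7.5% and 1.77%. TATAAA was in 7.5% of the carriers' stretches and 11.1% of all promoters, and the NRF1 palindrome in 0 of 40 and 1.13%. All promoters here include those of genes too low to be tested, whereas 35 of the 40 carriers had enough counts. The shares were not compared with those of tested genes alone, so they do not mark a trait of this family. Of the carriers that passed the test between BRD9 KO and LacZ control given further on, 11 that rose and 5 that fell had a stretch. The GC box was in 5 of those 11 and 4 of those 5, the E-box in 3 and 1, and the ETS letters in 3 and 0.

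Mean levels of the tested carriers ran from under 1 TPM to 677 TPM, and a few carriers held most of the family's transcripts. Levels between genes are given in TPM, which corrects for transcript length. Of the 41 members with enough counts to be tested, 6 averaged over 100 TPM, 29 between 10 and 100 TPM, 5 between 1 and 10 TPM and 1 under 1 TPM. The summed level of the family was 3047 and 3050 TPM in BRD9 KO, against 3117 and 3095 TPM in LacZ control. The 6 most abundant members held 71.9% and 72.4% of that sum in BRD9 KO and 73.7% and 72.9% in LacZ control.

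The phosphate carrier SLC25A3, which supplies the ATP synthase with phosphate, was the most abundant at 660 and 685 TPM in BRD9 KO and 690 and 674 TPM in LacZ control. SLC25A5, the ADP/ATP carrier of dividing cells (ANT2), had 656 and 663 TPM in BRD9 KO and 686 and 646 TPM in LacZ control. The values of these carriers overlap each other, so that their order is not resolved. SLC25A6, a further ADP/ATP carrier (ANT3), followed at 441 and 438 TPM in BRD9 KO and 480 and 499 TPM in LacZ control. Its range lies below those of SLC25A3 and SLC25A5. SLC25A39, which brings glutathione into mitochondria, had 189 and 191 TPM in BRD9 KO and 191 and 183 TPM in LacZ control.

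SLC25A1, the citrate carrier, stood at 123 and 117 TPM in BRD9 KO and at 125 and 127 TPM in LacZ control. SLC25A13, the aspartate/glutamate carrier citrin, had 120 and 114 TPM in BRD9 KO and 127 and 128 TPM in LacZ control. The ranges of SLC25A1 and SLC25A13 overlap each other and stand apart from SLC25A29, the next member, whose mean was 91.3 TPM. Sorted by CPM instead of TPM, 5 of these 6 would remain the most abundant.

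**Figure D1:**
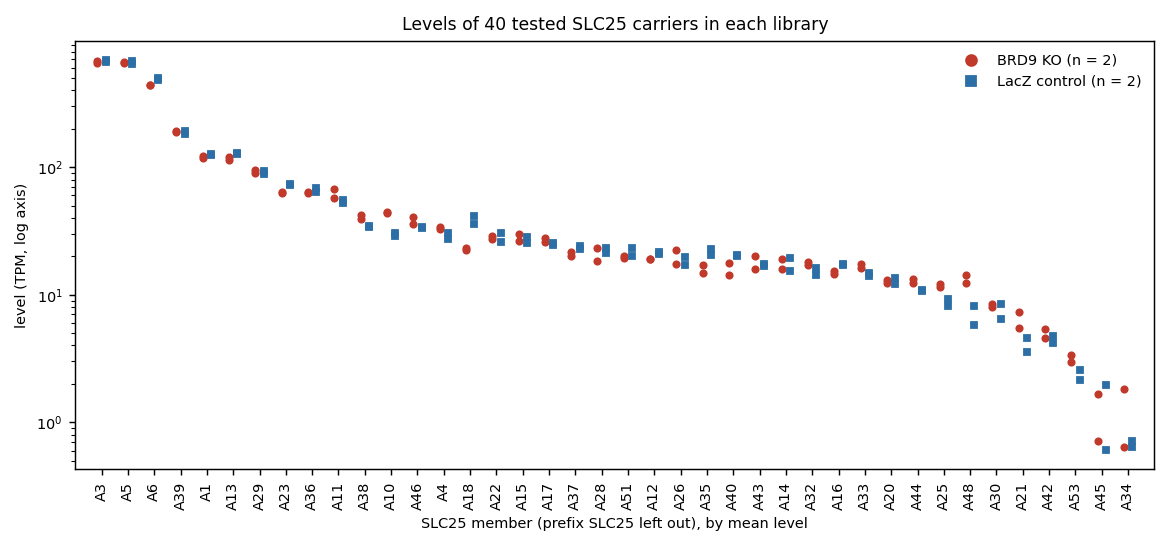
Level of 40 tested SLC25 carriers in TPM (log axis), sorted by mean level, with 1 point per library: red circles for BRD9 KO and blue squares for LacZ control (n = 2 each). SLC25A3, SLC25A5 and SLC25A6 stand above 438 TPM in every library, and the symbols of both groups lie close together for most members.

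Of the 50 rows, 9 were too low to be tested. SLC25A24, a calcium-regulated ATP-Mg/phosphate carrier, had no counts in any library, and counting error alone allows it up to 0.199 CPM in the library of lowest depth. SLC25A31, the ADP/ATP carrier of the testis, had 1 and 0 counts in BRD9 KO and 0 and 0 in LacZ control. SLC25A27, an uncoupling protein relative of brain (UCP4), had 0 and 0 counts in BRD9 KO and 1 and 0 in LacZ control. SLC25A31 and SLC25A27 are known from particular tissues, and the counts of both are near the limit of detection.

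SLC25A2, an ornithine carrier, had 1 and 2 counts in BRD9 KO and 0 and 2 in LacZ control. SLC25A41, an ATP-Mg/phosphate carrier, had 1 and 2 counts in BRD9 KO and 5 and 3 in LacZ control. SLC25A47, known from liver, had 1 and 0 counts in BRD9 KO and 0 and 0 in LacZ control, and SLC25A52, an NAD carrier, had 0 and 1.21 counts in BRD9 KO and 0 and 0 in LacZ control. No comparison was made for any of these members. The second model of SLC25A10 and the second row of SLC25A6 were also untested, and the SLC25A6 row was listed at 0 throughout.

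BRD9 KO and LacZ control were then compared gene by gene. Of the 41 tested carriers 20 changed, or 48.8%, where 38.6% of all 15288 genes tested did (edgeR quasi-likelihood test, adjusted p under 0.05, two-sided, n = 2 per group). The carriers that rose numbered 13 (31.7%, against 20.5% of all genes) and those that fell 7 (17.1%, against 18.1%). Among genes of at least 10 CPM on average, 18 of 33 carriers changed, or 54.5%, against 49% of all such genes, so that the family's share stood near its background. A change of at least 1.5-fold was found in 3 carriers (7.32%, against 6.86%). Neither library of one group overlapped the other group in 28 carriers (68.3%, against 68.6%).

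The changes were mostly small. The median log2 fold change of the tested carriers was 0.07, against -0.01 over all genes tested, and the range was -0.75 to 1.00. Of the 20 that changed, 16 did so by less than 1.3-fold. With DESeq2 in place of edgeR, 11 of the 40 carriers with an adjusted p passed (27.5%, against 26.5% of all genes). The carriers that rose numbered 8 when either BRD9 KO replicate 1 or LacZ control replicate 1 was left out.

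**Figure D2:**
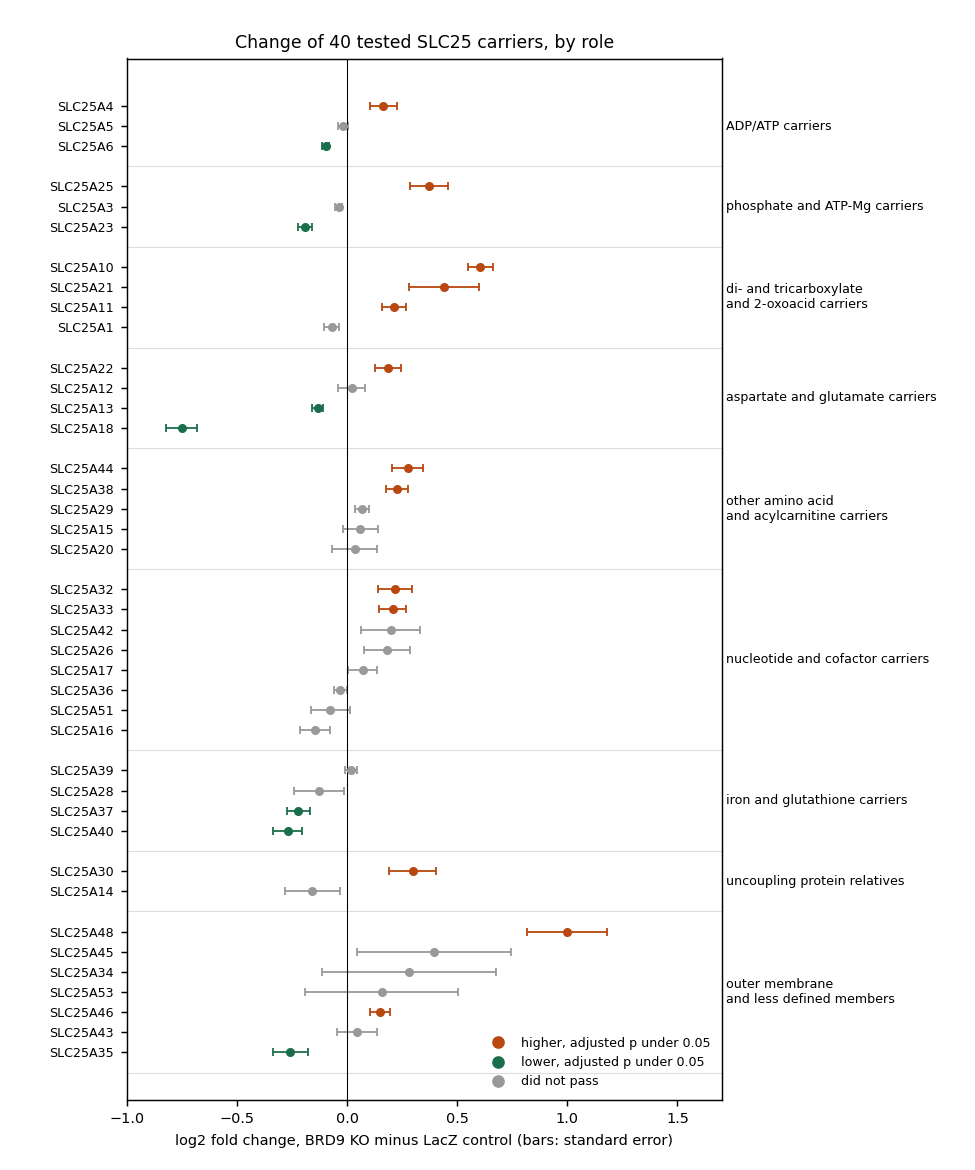
Log2 fold change of 40 tested carriers, BRD9 KO minus LacZ control, with its standard error (bars) and grouped by role. Orange marks carriers that were higher in BRD9 KO, green those that were lower and grey those that did not pass the edgeR test: SLC25A48, at 1.00, and SLC25A18, at -0.75, lie at the ends, and most others lie within 0.3 of zero.

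Of the 4 tested carriers of di- and tricarboxylates and 2-oxoacids, 3 rose and 0 fell, with a median log2 fold change of 0.33. This count and those of the other roles below stand beside 20.5% of all genes called higher and 18.1% called lower. Among genes of at least 10 CPM on average, 49% were called in either direction. Each role holds few carriers, and no role was tested as a set. SLC25A10, which exchanges malate or succinate for phosphate, rose with the smallest adjusted p of all carriers. It lies on the plus strand of chromosome 17, from 79679266 to 79688046 on GRCh37 (the sequence of hg19). It had 45.7 and 45.1 CPM in BRD9 KO, against 30.2 and 29.6 CPM in LacZ control. The means were 45.4 ± 0.407 CPM in BRD9 KO and 29.9 ± 0.429 CPM in LacZ control (SD, n = 2 each). The groups did not overlap. The log2 fold change was 0.61 ± 0.06 (SE, edgeR adjusted p = 5.19e-08), and it held at 0.59 to 0.62 in all 10 alternatives.

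SLC25A11, the 2-oxoglutarate/malate carrier of the malate-aspartate shuttle, had 48.1 and 52.3 CPM in BRD9 KO, against 42.5 and 43.7 CPM in LacZ control. On the log2 scale SLC25A11 rose by 0.22 (edgeR adjusted p = 0.00349), with both BRD9 KO libraries above both controls. SLC25A21, the oxodicarboxylate carrier of lysine and tryptophan breakdown, rose by 0.44 (edgeR adjusted p = 0.0346), a call that DESeq2 did not make (adjusted p = 0.197). SLC25A1, the citrate carrier that feeds cytosolic lipid synthesis, had a log2 fold change of -0.07 and did not pass (edgeR adjusted p = 0.117), although without BRD9 KO replicate 1 it did (adjusted p = 0.0438). Summed over this group, levels were 231 and 236 TPM in BRD9 KO and 209 and 217 TPM in LacZ control.

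Of the 4 carriers of aspartate and glutamate, 1 rose, 2 fell and 1 did not pass. SLC25A18 and SLC25A22 both carry glutamate together with a proton, and they went opposite ways. SLC25A18 lies on the plus strand of chromosome 22, from 18043150 to 18073761 on GRCh37. It had 28.7 and 29.4 CPM in BRD9 KO, against 52.9 and 45.1 CPM in LacZ control. Its log2 fold change of -0.75 ± 0.07 (SE, edgeR adjusted p = 3.31e-07) was the largest fall among the tested carriers, and the value stayed between -0.87 and -0.63 in all 10 alternatives. The means were 29.1 ± 0.471 CPM in BRD9 KO and 49.0 ± 5.53 CPM in LacZ control (SD, n = 2 each), so that the controls were the more spread group and the groups did not overlap.

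SLC25A22 rose by 0.19 (edgeR adjusted p = 0.0144) in estimated counts. In mean TPM its log2 ratio was 0.00, so its rise was absent on that scale. The ratio of SLC25A18 to SLC25A22 in TPM was 0.773 and 0.851 in BRD9 KO and 1.62 and 1.18 in LacZ control. The glutamate carrier with more transcript was thus SLC25A22 in both BRD9 KO libraries and SLC25A18 in both controls.

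SLC25A13 and SLC25A12 exchange matrix aspartate for cytosolic glutamate in the malate-aspartate shuttle. SLC25A13 had 209 and 207 CPM in BRD9 KO, against 228 and 229 CPM in LacZ control. The fall was small, at -0.13 on the log2 scale, and larger than the spread between libraries (edgeR adjusted p = 0.000121). SLC25A12 (aralar) had 31.0 and 32.0 CPM in BRD9 KO and 30.6 and 31.4 CPM in LacZ control, and its log2 fold change of 0.02 did not pass (edgeR adjusted p = 0.834). In TPM, SLC25A12 was lower in both BRD9 KO libraries, at 18.9 and 19.2 TPM, against 21.5 and 20.9 TPM in LacZ control. SLC25A13 per SLC25A12 in TPM was 6.36 and 5.93 in BRD9 KO and 5.89 and 6.14 in LacZ control, with overlapping groups. Whether SLC25A13 and SLC25A12 differed in their response was not tested.

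**Figure D3:**
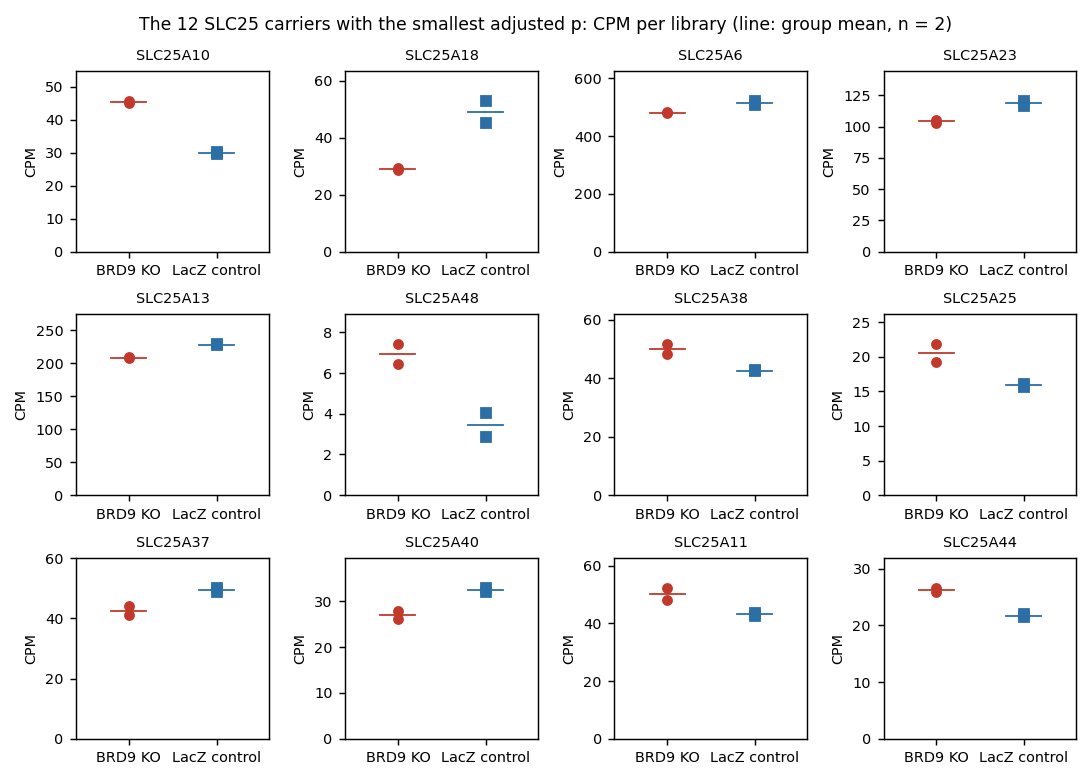
CPM per library (points) and group mean (lines) for the 12 carriers with the smallest adjusted p, BRD9 KO to the left of LacZ control, n = 2 each, with every axis starting at 0. In each panel both BRD9 KO libraries lie on one side of both controls, as in 68.6% of all genes tested. The carriers were picked by adjusted p in these same libraries, so this separation is no further evidence. The gap is wide for SLC25A10, SLC25A18 and SLC25A48 and narrow for SLC25A6 and SLC25A13.

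Of the ADP/ATP carriers, 1 rose, 1 fell and 1 did not pass. SLC25A6 had 483 and 479 CPM in BRD9 KO, against 507 and 522 CPM in LacZ control. The log2 fold change of SLC25A6 was -0.10 ± 0.02 (SE, edgeR adjusted p = 0.00011). The gene lies in the pseudoautosomal region of the sex chromosomes. SLC25A4 (ANT1), the form typical of heart and muscle, rose by 0.16 (edgeR adjusted p = 0.0402). SLC25A5 had 468 and 473 CPM in BRD9 KO and 490 and 464 CPM in LacZ control, with overlapping groups and a log2 value of -0.02 (edgeR adjusted p = 0.565).

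Within the summed TPM of SLC25A4, SLC25A5 and SLC25A6, the share of SLC25A4 was 3.03% and 2.88% in BRD9 KO and 2.56% and 2.33% in LacZ control. SLC25A6 had 39.0% and 38.7% in BRD9 KO, against 40.1% and 42.6% in LacZ control. SLC25A5 remained the main form in every library, with 58.0% and 58.5% in BRD9 KO and 57.3% and 55.1% in LacZ control.

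Among the carriers of phosphate and of ATP-Mg, SLC25A3 did not pass at -0.04 (edgeR adjusted p = 0.0794), with 511 and 526 CPM in BRD9 KO and 536 and 529 CPM in LacZ control. Its call turned on the settings: it passed with library totals alone (adjusted p = 0.042), with a stricter filter (0.0232) and without BRD9 KO replicate 2 (0.0351). The calcium-regulated ATP-Mg/phosphate carriers, which adjust the adenine nucleotide pool of the matrix, moved apart. SLC25A23 had 103 and 105 CPM in BRD9 KO, against 117 and 121 CPM in LacZ control. It fell by 0.19 (edgeR adjusted p = 0.000119). SLC25A25 had 21.8 and 19.2 CPM in BRD9 KO, against 15.7 and 16.1 CPM in LacZ control, and rose by 0.37 (edgeR adjusted p = 0.00206). SLC25A23 remained the more abundant, at 5.18 and 5.56 TPM per TPM of SLC25A25 in BRD9 KO and 8.76 and 7.89 in LacZ control.

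Of 5 other carriers of amino acids and acylcarnitines tested, 2 rose and 0 fell. SLC25A38, which takes glycine into the matrix for haem synthesis, had 48.4 and 51.6 CPM in BRD9 KO, against 42.9 and 42.3 CPM in LacZ control. It rose by 0.23 (edgeR adjusted p = 0.00172). SLC25A44, the carrier of branched-chain amino acids, had 26.6 and 25.9 CPM in BRD9 KO, against 21.4 and 21.96 CPM in LacZ control, a rise of 0.28 (edgeR adjusted p = 0.00439). Both were above the controls in both BRD9 KO libraries and passed in every alternative. SLC25A29 (basic amino acids), SLC25A15 (ornithine) and SLC25A20 (carnitine and acylcarnitine) had log2 fold changes of 0.07, 0.06 and 0.04 and did not pass.

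The carriers of iron and glutathione gave 0 rises and 2 falls of 4 tested. SLC25A37 (mitoferrin 1), which imports iron and is best known from red cell precursors, had 41.0 and 44.03 CPM in BRD9 KO, against 50.2 and 48.8 CPM in LacZ control. It fell by 0.22 (edgeR adjusted p = 0.00236), and DESeq2 placed it just outside the threshold (adjusted p = 0.0521). Its paralog SLC25A28 (mitoferrin 2), which serves other cells, had 13.4 and 10.8 CPM in BRD9 KO and 12.3 and 14.3 CPM in LacZ control. Its groups overlapped, and its log2 fold change of -0.13 did not pass. SLC25A40, a paralog of the glutathione carrier SLC25A39, had 26.2 and 27.9 CPM in BRD9 KO, against 33.0 and 32.1 CPM in LacZ control. It fell by 0.27 (edgeR adjusted p = 0.0027), while the far more abundant SLC25A39 did not pass at 0.02 (edgeR adjusted p = 0.614). SLC25A39 per SLC25A40 in TPM was 13.1 and 10.7 in BRD9 KO and 9.51 and 8.99 in LacZ control.

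Of 9 carriers of nucleotides and cofactors tested, 2 rose and 0 fell. SLC25A33, which carries pyrimidine nucleotides, rose by 0.21 (edgeR adjusted p = 0.011), and SLC25A32, the folate and FAD carrier, by 0.22 (edgeR adjusted p = 0.0346). SLC25A26 (S-adenosylmethionine) and SLC25A42 (coenzyme A) had log2 fold changes of 0.18 and 0.20 and did not pass, although SLC25A26 did without BRD9 KO replicate 2 (edgeR adjusted p = 0.0402). SLC25A16, SLC25A51 (NAD), SLC25A36 (pyrimidine nucleotides) and the peroxisomal SLC25A17 had -0.15, -0.08, -0.03 and 0.07 and did not pass.

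SLC25A48 had the largest fold change of the family, from a low level. Its gene in GENCODE v44 runs along the plus strand of chromosome 5 from 134812603 to 135225459 on GRCh37. This span need not be that of the model counted, nor begin at the RefSeq start whose upstream stretch is shown above. It had 6.46 and 7.41 CPM in BRD9 KO, against 2.85 and 4.02 CPM in LacZ control. The means were 6.94 ± 0.669 CPM in BRD9 KO and 3.44 ± 0.825 CPM in LacZ control (SD, n = 2 each). The log2 fold change was 1.00 ± 0.18 (SE, edgeR adjusted p = 0.000193), and it lay between 0.79 and 1.28 in the alternatives, all of which passed. In the same group of 7 tested outer membrane and less defined members, of which 2 rose and 1 fell, SLC25A46, an outer membrane protein involved in mitochondrial dynamics, rose by 0.15 (edgeR adjusted p = 0.0127). SLC25A35, whose substrate is poorly defined, fell by 0.26 (edgeR adjusted p = 0.0152). SLC25A34, SLC25A43, SLC25A45 and SLC25A53 had 0.28, 0.05, 0.39 and 0.16 and did not pass, and all but SLC25A43 were under 2 CPM in every library. Of the 2 tested uncoupling protein relatives, SLC25A30 (KMCP1) rose by 0.30 (edgeR adjusted p = 0.0311) and SLC25A14 (BMCP1), at -0.16, did not pass.

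Across the 11 fits, 11 members were called each time, 6 higher and 5 lower. Higher were SLC25A10, SLC25A11, SLC25A25, SLC25A38, SLC25A44 and SLC25A48, and lower were SLC25A6, SLC25A13, SLC25A18, SLC25A23 and SLC25A40. The share of all genes called in every fit was not computed, so this count is no trait of the family. With DESeq2 alone the carriers' share was 27.5%, against 26.5% of all genes. Beside SLC25A37, the other 8 calls were lost with DESeq2 and with at least 2 of the libraries left out. SLC25A22 lost its call without BRD9 KO replicate 2 (edgeR adjusted p = 0.0706) or LacZ control replicate 1 (0.118), and SLC25A33 without the same libraries (0.102 and 0.1). SLC25A35 lost it once BRD9 KO replicate 2 (edgeR adjusted p = 0.139) or LacZ control replicate 2 (0.133) was dropped, and SLC25A32 on removal of BRD9 KO replicate 1 (0.246) or LacZ control replicate 2 (0.399). SLC25A46 lost it without BRD9 KO replicate 1 (edgeR adjusted p = 0.256) or either LacZ control replicate 1 (0.0521) or 2 (0.154), and SLC25A4 without BRD9 KO replicate 1 (0.176) or 2 (0.0633) or LacZ control replicate 2 (0.288). SLC25A30 lost it without BRD9 KO replicate 1 (edgeR adjusted p = 0.0644) or 2 (0.0925) or LacZ control replicate 1 (0.359). SLC25A21 lost it without any 1 of the libraries, at edgeR adjusted p between 0.0726 and 0.191. All of these kept their sign.

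Some carriers share exons with other transcribed genes, and the kit named in the study's methods does not mark strand, so reads from the shared part cannot be told apart. Of the tested members 13 have exon bases, over all transcripts in GENCODE v44, in common with a gene that averaged at least 10 counts. Of these 13 members 9 were called, beside 48.8% of all tested carriers and 38.6% of all genes tested. The models counted by the authors may differ from GENCODE v44. SLC25A32 overlaps DCAF13 on the opposite strand, which also rose, at 66.9 and 62.1 CPM in BRD9 KO and 53.8 and 54.8 CPM in LacZ control (log2 fold change 0.25, edgeR adjusted p = 0.000201). SLC25A21 overlaps SLC25A21-AS1, which fell by 0.59 (edgeR adjusted p = 0.0459) while SLC25A21 rose. SLC25A21 also shares 1442 of its 4757 exon bases with PAX9 on the opposite strand, at 1.06 CPM or less in every library. SLC25A18 overlaps AC004019.13 on the opposite strand, with 0.616 and 0.857 CPM in BRD9 KO and 1.26 and 1.32 CPM in LacZ control, far fewer reads than SLC25A18 had. SLC25A11 shares 46 of its 2471 exon bases with RNF167 on the opposite strand, a gene with more reads than its own, at 69.7 and 70.2 CPM in BRD9 KO and 63.9 and 67.5 CPM in LacZ control (log2 fold change 0.09, edgeR adjusted p = 0.0992). SLC25A40 shares 145 of its 5084 exon bases with DBF4 on the opposite strand, also with more reads, at 50.3 and 44.6 CPM in BRD9 KO and 47.4 and 46.3 CPM in LacZ control (log2 fold change 0.03, edgeR adjusted p = 0.762). SLC25A35 shares 1134 of its 3952 exon bases with RANGRF on the opposite strand. RANGRF had 17.4 and 17.15 CPM in BRD9 KO and 18.0 and 16.1 CPM in LacZ control (log2 fold change 0.02, edgeR adjusted p = 0.867). SLC25A35 itself had 19.1 and 17.6 CPM in BRD9 KO and 21.4 and 22.6 CPM in LacZ control. SLC25A48 overlaps CTC-321K16.1 and RP11-119J18.1 on the same strand, each at 1.29 CPM or less in every library. SLC25A10 overlaps no gene that averaged at least 10 counts, and its own second model had at most 0.01 counts in a library. SLC25A25 shares 665 of its 5926 exon bases with RP11-395P17.3 on the opposite strand. That gene had 4.26 and 4.84 CPM in BRD9 KO and 3.25 and 3.90 CPM in LacZ control (log2 fold change 0.34, edgeR adjusted p = 0.175). SLC25A25 also shares 6 exon bases with NAIF1, and SLC25A30 shares 98 of its 6794 with TPT1-AS1, which did not pass (edgeR adjusted p = 0.719). The part of these overlaps in the results was not tested. The 40 pseudogene rows named after SLC25 genes summed to 9.04 and 3.14 counts in BRD9 KO and 18.1 and 9.14 counts in LacZ control.

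The same comparison was read over genes that work with the carriers. Of 4 tested family members under other names, 1 rose and 1 fell. UCP2, an uncoupling protein, fell by 0.31 (edgeR adjusted p = 5.58e-09), with 183 and 178 CPM in BRD9 KO and 224 and 225 CPM in LacZ control. MTCH2, an outer membrane insertase, rose by 0.26 (edgeR adjusted p = 2.85e-06), and MTCH1, at 0.02, did not pass. Of 19 other transport proteins of the mitochondrial membranes 7 rose and 5 fell, with a median log2 fold change of 0.04. MPC1, a subunit of the pyruvate carrier, rose by 0.60 (edgeR adjusted p = 7.78e-10), while its partner subunit MPC2 had -0.19 (edgeR adjusted p = 0.00935). The MPC2 call was lost with DESeq2 and without BRD9 KO replicate 2 (edgeR adjusted p = 0.0788), LacZ control replicate 1 (0.0689) or LacZ control replicate 2 (0.0505). LETM1 and SFXN5 rose by 0.35 and 0.41, and SFXN2 fell by 0.42. MCU and ABCB6, named after their values were seen, also fell, at -0.19 and -0.55. The ABCB6 call was lost without any 1 library (edgeR adjusted p between 0.0796 and 0.128), without a filter (0.0559) and with DESeq2. That of MCU was lost without BRD9 KO replicate 1 (edgeR adjusted p = 0.0596) or 2 (0.0614), without LacZ control replicate 1 (0.0979) and with DESeq2. The rises in it numbered 4 without LacZ control replicate 2, and the falls between 1 and 3 without any 1 library.

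Enzymes on either side of the carriers also moved in both directions. Of 5 tested enzymes of the malate-aspartate and glycerol phosphate shuttles, 2 rose and 0 fell, MDH2 by 0.12 and GOT2 by 0.10 on the log2 scale. The GOT2 call was lost without LacZ control replicate 2 (edgeR adjusted p = 0.0666). Of 9 enzymes of citrate and 2-oxoacids 4 rose and 2 fell, with ME2 (mitochondrial malic enzyme), ME3 and OGDH at 0.39, 0.37 and 0.22 and IDH2 at -0.30. The remaining calls, named after their values were seen, were IDH1 at 0.11 and CS at -0.10. ME3 lost its call when BRD9 KO replicate 2 (edgeR adjusted p = 0.119) or LacZ control replicate 1 (0.1) was left out. IDH1 and CS lost theirs without replicate 2 of BRD9 KO (edgeR adjusted p = 0.0553 and 0.177) or of LacZ control (0.143 and 0.354), and DESeq2 called none of these 3. The rises numbered 2 without BRD9 KO replicate 2, and the falls 1 without replicate 2 of either group. Of 7 enzymes of glutamate, proline and ornithine 3 rose and 1 fell. GLS2, a glutaminase that makes glutamate in the matrix, had 14.98 and 13.5 CPM in BRD9 KO, against 7.83 and 6.36 CPM in LacZ control, a rise of 1.01 (edgeR adjusted p = 1.53e-06). GLUD1, which turns glutamate into 2-oxoglutarate, fell by 0.22 (edgeR adjusted p = 8e-07), and OAT rose by 0.12.

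Of 8 folate one-carbon enzymes 2 rose and 3 fell, with MTHFD2 at 0.42, MTHFD1L at 0.19 and SHMT1 at -0.21, and with SHMT2, named after its value was seen, at -0.10. The SHMT2 call was lost without any 1 library (edgeR adjusted p between 0.0553 and 0.174), without a filter (0.13) and with DESeq2 (0.312). Of 12 tested enzymes of haem and iron-sulphur clusters 4 rose and 2 fell, with the scaffold protein ISCU at 0.45, UROS at 0.31 and ALAS1, the first enzyme of haem synthesis, at 0.27. Of 7 adenine nucleotide partners 2 rose and 1 fell, with PPIF, the cyclophilin of the permeability transition pore, at 0.49, AK4 at 0.40 and AK3 at -0.27, and without LacZ control replicate 1 the falls numbered 2. Of 9 regulators of mitochondrial biogenesis 6 rose and 1 fell, with a median log2 fold change of 0.19. The coactivators PPARGC1B and PPRC1 rose by 0.67 and 0.36 and TFB2M by 0.48, while PPARGC1A had at most 1 count in a library. The single fall in the last list, that of TFB1M at -0.25, was named after its value was seen, and its call was lost without any 1 library (edgeR adjusted p between 0.076 and 0.184), without a filter (0.0797) and with DESeq2. The falls there numbered 0 without BRD9 KO replicate 2 or either LacZ control library, and the rises 3 without BRD9 KO replicate 2. The falls among the haem and iron-sulphur enzymes, PPOX at -0.32 and ALAD at -0.24, were also named after their values were seen. They numbered 0 without LacZ control replicate 2 and 1 without any other library, and 0 with DESeq2. The PPOX call was lost without BRD9 KO replicate 1 (edgeR adjusted p = 0.127) or LacZ control replicate 2 (0.113), and that of ALAD once BRD9 KO replicate 2 (0.442) or a LacZ control library, replicate 1 (0.161) or 2 (0.181), was dropped. As for the carriers, these counts stand beside 20.5% of all genes called higher and 18.1% called lower. Most of the tested partner genes averaged at least 10 CPM, and 49% of all such genes were called in either direction.

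**Figure D4:**
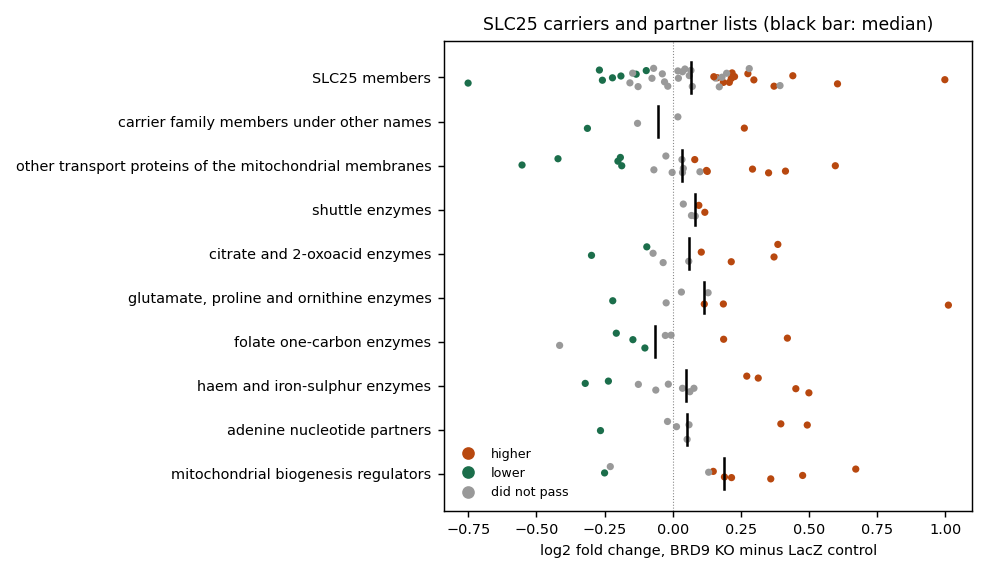
Log2 fold change, BRD9 KO minus LacZ control, of every tested gene (points) in the SLC25 family and in each list of partner genes, with the list's median as a black bar. Orange points were higher, green points lower and grey points did not pass the edgeR test. Every list except the shuttle enzymes holds both orange and green points, and the medians run from -0.07 to 0.19.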

How the data were processed

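RNA was sequenced from 4 G401 libraries, 2 BRD9 KO and 2 LacZ control, grouped by their labels. The labels name a Direct-zol extraction and the methods of the study Trizol with column cleanup, which is not settled here. STAR was used by the authors for alignment to hg19 and RSEM for 57820 gene models, with no version stated in the sources used here. The authors made the deposited expected counts (estimated counts) with RSEM. These are not scaled between libraries and divide reads shared between paralogs by a model. The deposited TPM, which the authors scaled within each library and by effective length, was used for levels between genes. The other deposited column used, the authors' posterior standard deviation of a count, was at most 3.5% of the count among tested carriers.

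Expected counts were rounded to whole numbers and tested with the quasi-likelihood test of edgeR 4.0.16 (R 4.3.3), with TMM scaling, filterByExpr (15288 genes kept) and robust dispersions, two-sided, with p-values adjusted over all genes by the Benjamini-Hochberg method and a threshold of 0.05. CPM values are TMM-scaled, and a log2 fold change is LacZ control subtracted from BRD9 KO. Replicates differed by more than sampling noise (chi-square per degree of freedom 1.59 in BRD9 KO and 1.62 in LacZ control, over genes of at least 20 counts) and were kept apart. The study's methods call the replicates biological, while the labels do not say whether they are separate cultures, and the p-values cover the spread among these libraries alone. Totals of 15053247 to 19559290 counts set the precision, and a count of 0 was read as at most 3 counts.

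The carriers, their roles, the partner lists and the rule for naming genes were chosen with earlier results of these data known. The rule named every carrier past the threshold, gave each library's value for the 12 smallest adjusted p, the 6 highest mean TPM and any change of at least 1.5-fold, and named up to 4 members per partner list. Alternatives were RLE size factors, library totals alone, no filter, at least 1 CPM in all 4 libraries, the replicate number as a block, leaving out 1 library at a time (with the lone library of that group taken to vary as the other group does) and DESeq2 1.42.0. The ratio of mean TPM and the share of called genes of at least 10 CPM were added after seeing the data. Gene positions on GRCh37 come from GENCODE v44 and matched 48 of 50 rows. Upstream sequences come from RefSeq on GRCh38.p14. The tests were checked on simulated data. A few genes that the naming rule took, and 1 upstream sequence, are not reported here.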

Additional observations from a re-analysis of the deposited data

How the results depend on the processing

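Of the 20 carriers that passed with edgeR, DESeq2 called 11, and of the 13 that rose it called 6, while over all genes it called 3585 in place of 5901 (1439 in place of 2774 among the falls). With each library left out in turn, between 15 and 16 carriers passed, with between 8 and 9 higher and between 6 and 8 lower, and between 4195 and 4960 genes overall (falls down to 1838 without LacZ control replicate 2). RLE size factors, library totals alone, no filter and the stricter filter gave between 20 and 21 carriers. No carrier reversed its call in any alternative. Among partner genes CKMT1A, which shares reads with the near-identical CKMT1B, had a log2 value of 0.05 (edgeR adjusted p = 0.956) that ran from -0.36 to 0.70 as libraries were left out. It was past the threshold in opposite directions without LacZ control replicate 1 and without LacZ control replicate 2, and the cause was not tested. In mean TPM all 20 carriers kept their sign, with SLC25A22 at 0.00.

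The replicate numbers did not pair the libraries: over 9986 genes the deviations of same-numbered libraries from their group means correlated at -0.02. With the replicate number as a block, 20 carriers passed, 13 higher and 7 lower, and 6109 genes overall. With 2 libraries per group, a small change of a low carrier such as SLC25A34 or SLC25A45 was not detectable at this depth.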
